A study of Rattus norvegicus with 19 samples.

Results

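The interferon-stimulated genes Ifit2, Ifit3, Isg15, Mx1, Mx2, Irf7, Irf1, Rsad2 and Gbp2 were followed in the T11 dorsal root ganglion of the rat, which holds the cell bodies of sensory neurons of one thoracic segment. All probe sets that the array's annotation assigned to these symbols were taken, whatever their values. This gave 11 probe sets for the 9 genes, out of 31042 probe sets other than controls and 14217 genes named by the array. Ifit2 and Mx2 had 2 probe sets each, and each of the other 7 genes had 1.

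The 19 arrays came from adult female Sprague-Dawley rats, 1 ganglion and 1 array per rat, on the Affymetrix Rat Genome 230 2.0 design. They formed a naive group of 5, a day 7 group of 7 and a day 14 group of 7. In the operated rats the dorsal and lateral cutaneous nerves of T9, T10, T12 and T13 were cut on one side under pentobarbital, so that the spared T11 nerves bordered denervated skin and sprouted into it. Naive rats had no operation and no sham surgery was among the groups, so surgery and denervation of the neighbouring skin cannot be told apart. All rats were killed by an overdose of pentobarbital. Both operated groups were compared with the same 5 naive arrays.

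Interferons are secreted proteins that alert cells to infection or damage. Type I interferons act through the receptor chains Ifnar1 and Ifnar2 and the kinases Jak1 and Tyk2, and lead to a complex with Stat2 and Irf9 that binds a promoter element called the ISRE. Interferon gamma acts through Ifngr1 and Ifngr2, Jak1 and Jak2, and its target genes carry a different element, the GAS. The genes switched on in this way encode antiviral effectors, and most cell types, neurons and glia included, can express them.

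Promoter sequences are shown because both elements are short and can be read in the letters. Of the 9 genes, 6 had an entry in the RefSeq promoter table (build GRCr8), which covers 250 bases before to 50 bases after the start of the gene. The ISRE core was searched as GAAA and GAAA with any 2 bases between them, on both strands (TTTC and TTTC on the other), and the GAS core as TTCNNNGAA, which reads the same on both strands. No window held both, so no matches overlapped. An ISRE match was present in 4 of the 6, in Ifit3, Irf7, Rsad2 and Gbp2, where 3.92% of all 33469 promoters in the table held one. A GAS match was present in 1 of the 6, Irf1, where 8.87% of all promoters held one, and the Mx1 window held neither. Each line below gives a window of the promoter read 5′ to 3′ on the gene's own strand, with the match in capitals. The windows lie at chr1:241527267-241527306 on the plus strand for Ifit3, chr1:205800068-205800107 on the minus strand for Irf7, chr6:48788243-48788282 on the minus strand for Rsad2, chr2:234005681-234005720 on the plus strand for Gbp2 and chr10:38417778-38417816 on the plus strand for Irf1.
Ifit3: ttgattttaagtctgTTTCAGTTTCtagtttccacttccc
Irf7: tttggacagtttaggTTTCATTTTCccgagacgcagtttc
Rsad2: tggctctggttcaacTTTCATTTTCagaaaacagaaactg
Gbp2: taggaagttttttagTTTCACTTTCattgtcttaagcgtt
Irf1: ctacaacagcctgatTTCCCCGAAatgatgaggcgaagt

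The ISRE matches lay close to the gene start, at 44 to 35 bases before it in Ifit3 and 31 to 22 bases before it in Gbp2. In Irf7 the match lay 69 to 60 bases before the start, and in Rsad2 147 to 138 bases before it. The GAS match of Irf1 lay 142 to 134 bases before the start. Ifit2, Isg15 and Mx2 had no entry. Among 62 other interferon-stimulated genes measured on the arrays, 56 had a promoter entry and 32 of these (57.1%) held an ISRE match. A match describes the letters of this window and no binding was measured.

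Array values have no sequencing depth behind them, and the precision of a difference depends on the number of arrays and on the spread between rats. Log2 levels ran from 3.48 to 14.02 over all probe sets and arrays, and correlations between arrays lay between 0.987 and 0.997. Markers of the labelled tissue were at high levels. The list mean was 11.4 to 11.8 for sensory neurons (11 of 12 listed genes measured), 10.6 to 11.3 for Schwann cells (7 of 8) and 9.18 to 9.69 for satellite glia (5 of 7). Group means in naive, day 7 and day 14 rats were 11.53, 11.57 and 11.58 for sensory neurons. They were 11.15, 10.89 and 11.10 for Schwann cells and 9.36, 9.40 and 9.51 for satellite glia. At day 7 against naive, 0 of 7 Schwann cell genes stood higher, where 53% of all probe sets did. None of their probe sets passed an adjusted p of 0.05 in limma. Skeletal muscle markers (11 of 12) stood apart on 3 arrays, naive replicate 1 at 10.07, day 7 replicate 7 at 9.72 and day 14 replicate 2 at 8.37, against 6.49 to 7.54 on the other arrays. The list mean of nerve injury markers (9 of 9) was 7.69 to 10.39 in day 7 rats and 7.76 to 10.80 in day 14 rats, against 7.41 to 7.73 in naive rats.

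None of the 11 probe sets differed detectably between groups at either time. Against naive, limma called 0 of 11 at day 7, with 0% of all 31042 probe sets called, and 0 of 11 at day 14, with 0.139% of all called, at an adjusted p of 0.05. Between day 14 and day 7 it called 0 of 11, with 0% of all called, and a test for any difference among the 3 groups called 0 of 11, with 0.0258% of all called, and 0 of 11 at an unadjusted p under 0.05, with 16% of all. At an unadjusted p under 0.05 the count was again 0 of 11 in each of the 3 comparisons, where 8.7% of all probe sets passed at day 7 against naive, 19.7% at day 14 against naive and 11.3% at day 14 against day 7. By exact permutation tests, two-sided, the count at an unadjusted p under 0.05 was also 0 of 11 in each comparison. These tests were run on the members only, so no share over all probe sets stands beside this count.

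At day 7 against naive, 5 probe sets stood higher, where 53% of all did, and 6 lower, with a median log2 difference of -0.03 beside 0.01 over all probe sets. At day 14 against naive, 3 stood higher, where 56.4% of all did, and 8 lower, with a median of -0.09 beside 0.02 over all. At day 14 against day 7, 3 stood higher, where 55% of all did, and 8 lower, with a median of -0.03 beside 0.01. In none of the 3 comparisons did any member's arrays separate completely, as they did for 0.441%, 1.82% and 0.187% of all probe sets in these comparisons. The smallest adjusted p of a member from limma was 0.699, 0.424 and 0.681 in the same order.

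**Figure D1:**
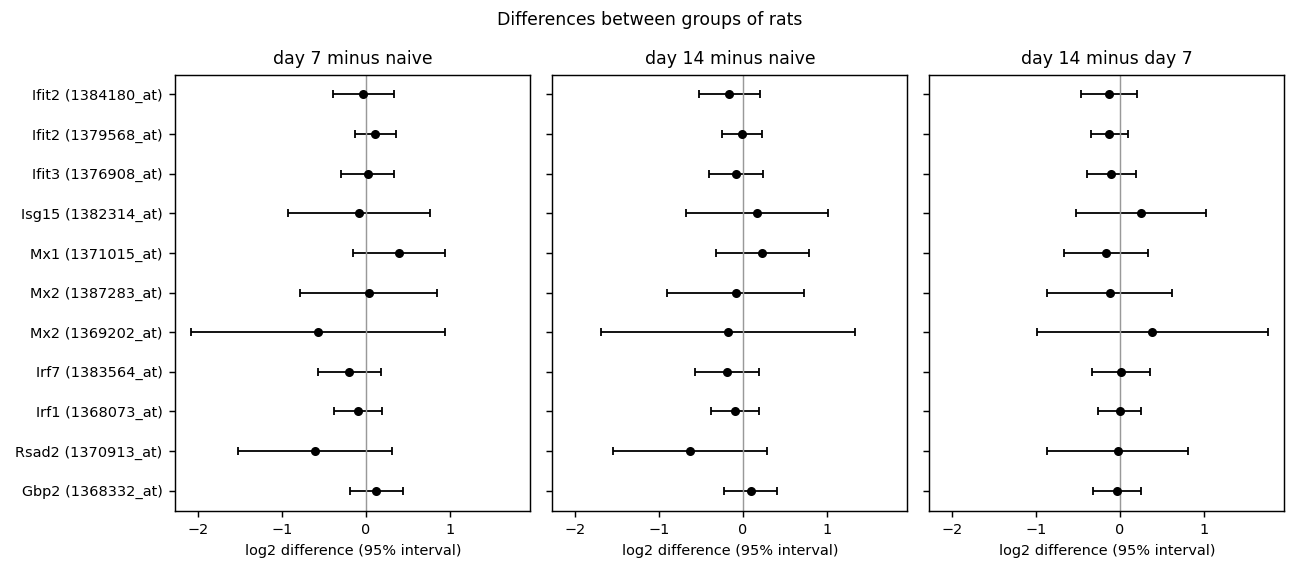
Log2 difference of each of the 11 probe sets (points) with its 95% interval from limma (bars) in the 3 comparisons, with the probe set in parentheses. Every interval includes 0, and the intervals are widest for Mx2 (1369202_at), Rsad2 and Isg15.

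The precision differed between the members. The standard error of a difference from naive was 0.12 to 0.73 among the members, with a median of 0.08 over all probe sets. For Isg15, Rsad2 and Mx2 (1369202_at) an interval reached a difference of 1 log2 unit in at least 1 comparison, and for the other 8 probe sets none did.

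Isg15 encodes a ubiquitin-like protein that is attached to other proteins after interferon treatment. Its log2 levels in naive rats were 7.97, 8.28, 7.02, 8.24 and 7.72. They ran from 6.71 over a median of 7.43 to 8.78 in day 7 rats, and from 7.11 over 8.17 to 9.54 in day 14 rats. The groups overlapped widely, and the highest level, in day 14 replicate 6, was 7.11-fold above the lowest, in day 7 replicate 5. The log2 difference from naive was -0.08 ± 0.41 (SE) at day 7 and 0.17 ± 0.41 at day 14, where the 95% interval ran from 0.63-fold to 2.03-fold (limma adjusted p = 0.974 and 0.843).

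Rsad2 encodes viperin, an antiviral enzyme of the endoplasmic reticulum and lipid droplets. Its levels in naive rats were 9.77, 8.59, 10.32, 9.11 and 10.18. They ran from 7.55 over 8.93 to 10.11 in day 7 rats, and from 7.86 over 9.11 to 10.40 in day 14 rats. Levels below every naive rat were met in 2 of 7 day 7 rats and 3 of 7 day 14 rats, and 1 day 14 rat lay above every naive rat. For Rsad2 the log2 difference from naive was -0.61 ± 0.44 (SE) at day 7 and -0.63 ± 0.44 at day 14, and neither passed (limma adjusted p = 0.733 and 0.424). With 1 array left out at a time, the day 7 value ran from -0.86 without naive replicate 2 to -0.37 without day 7 replicate 7. The day 14 value ran from -0.88 without naive replicate 2 to -0.45 without day 14 replicate 7. Without the 3 arrays high in muscle markers, which include day 7 replicate 7, these values were -0.32 and -0.45. Animal codes in the labels begin with AI, AJ or AK, which the labels do not explain. Among AJ rats the Rsad2 difference at day 7 was -1.17 (5 day 7 rats, 2 naive rats) and among AK rats -0.02 (2 day 7 rats, 3 naive rats).

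Mx1 and Mx2 encode dynamin-like GTPases that block the replication of viruses. Mx1 levels in naive rats were 6.24, 6.68, 5.34, 6.38 and 6.24. They ran from 5.90 over 6.49 to 7.32 in day 7 rats, and from 5.99 over 6.29 to 7.47 in day 14 rats. The ranges overlapped, with 2 of 7 day 7 rats and 1 of 7 day 14 rats above every naive rat. For Mx1 the log2 difference from naive was 0.40 ± 0.26 (SE) at day 7 and 0.23 ± 0.26 at day 14, and neither passed (limma adjusted p = 0.699 and 0.645). Without naive replicate 3 these values were 0.19 and 0.02, and without day 14 replicate 6 the day 14 value was 0.05. Without naive replicate 2 the values were 0.52 at day 7 and 0.36 at day 14. The Mx1 interval at day 7 ran from 0.90-fold to 1.93-fold.

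The probe sets of Mx2 disagreed with each other. Mx2 (1387283_at) was at 8.04, 7.83, 7.44, 7.57 and 6.36 in naive rats. It ran from 6.44 over 7.76 to 8.53 in day 7 rats and from 6.64 over 7.35 to 8.39 in day 14 rats. Its difference from naive was 0.03 ± 0.39 (SE) at day 7 and -0.09 ± 0.39 at day 14 (limma adjusted p = 0.986 and 0.92), and the groups overlapped. Mx2 (1369202_at) was at 7.41, 7.34, 6.96, 7.56 and 7.97 in naive rats. It ran from 5.14 over 7.84 to 8.47 in day 7 rats and from 5.06 over 7.30 to 8.86 in day 14 rats. Operated rats thus lay on both sides of the naive ones, with 3 of 7 above and 3 of 7 below every naive rat at day 7, and 3 of 7 above and 2 of 7 below at day 14. Its difference from naive was -0.57 ± 0.73 (SE) at day 7 and -0.18 ± 0.73 at day 14 (limma adjusted p = 0.866 and 0.912).

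The 19 values of Mx2 (1369202_at) fell into separate clusters. They lay at 5.06 to 5.27 on 5 arrays, day 7 replicates 1, 4 and 5 and day 14 replicates 6 and 7, and at 6.96 to 8.86 on the other 14 arrays. The gap of 1.69 log2 units ranked 8th in size among all 31042 probe sets, counting gaps with at least 4 arrays on each side, and 10 probe sets had such a gap above 1.5. On the 5 arrays where this probe set was lowest, Mx2 (1387283_at) was at 7.96 to 8.53, and on the other 14 it was at 6.36 to 8.04. Because of the clusters no correlation over all arrays is given. Over the 14 arrays above the gap, Pearson's r of the 2 probe sets, each centred within its group, was -0.52 (permutation p = 0.0271, adjusted 0.0994) and Spearman's rho was -0.51 (permutation p = 0.0466, adjusted 0.142). It did not pass after adjustment, and Mx2 is therefore reported by probe set and not as 1 gene level.

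**Figure D2:**
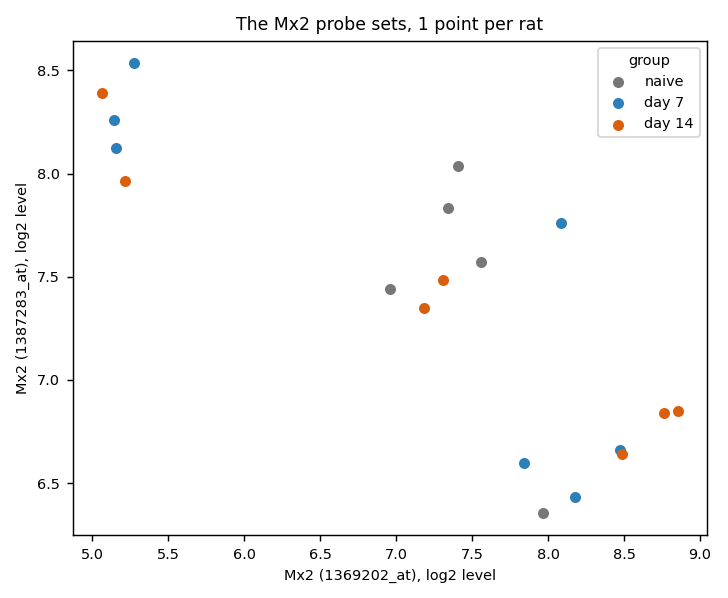
Log2 level of Mx2 (1387283_at) against Mx2 (1369202_at), 1 point per rat, coloured by group. The 5 rats at 5.06 to 5.27 on the horizontal axis lie at 7.96 to 8.53 on the vertical axis, and none of them is naive. Their animal codes begin with AJ (day 7) or AI (day 14). Of the 5 naive rats 3 have codes with AK, so group and code are mixed here.

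Ifit2 and Ifit3 encode proteins with tetratricopeptide repeats that bind foreign RNA or the translation machinery. Ifit2 (1384180_at) was at 8.30, 8.13, 7.73, 7.97 and 8.20 in naive rats. It ran from 7.69 over 7.94 to 8.97 in day 7 rats and from 7.57 over 7.90 to 8.24 in day 14 rats. The groups overlapped except for day 7 replicate 4, which at 8.97 stood above every other array. Its difference from naive was -0.03 ± 0.17 (SE) at day 7 and -0.16 ± 0.17 at day 14 (limma adjusted p = 0.976 and 0.624). Ifit2 (1379568_at) was at 6.42, 6.46, 6.18, 6.38 and 6.50 in naive rats, and its differences of 0.11 ± 0.12 and -0.01 ± 0.12 did not pass either (limma adjusted p = 0.823 and 0.967). It ran from 6.21 over 6.46 to 6.95 in day 7 rats and from 6.01 over 6.43 to 6.61 in day 14 rats, and its highest array was again day 7 replicate 4.

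Ifit3 had the lowest mean level of the members, 4.70, where the median of all values was 6.72. It varied little among naive rats. Its levels in naive rats were 4.75, 4.65, 4.72, 4.80 and 4.71. They ran from 4.46 over 4.62 to 5.72 in day 7 rats and from 4.45 over 4.61 to 4.89 in day 14 rats. Below every naive rat were 5 of 7 day 7 rats and 4 of 7 day 14 rats, while day 7 replicate 4 was the one array above 5. The difference from naive was 0.02 ± 0.15 (SE) at day 7 and -0.08 ± 0.15 at day 14 (limma adjusted p = 0.982 and 0.793).

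Among the transcription factors, Irf7 drives the production of type I interferon and Irf1 acts downstream of interferon gamma. Irf7 was at 7.89, 7.84, 7.50, 8.31 and 7.84 in naive rats. It ran from 7.33 over 7.58 to 8.25 in day 7 rats and from 7.29 over 7.57 to 8.30 in day 14 rats. No operated rat lay above the highest naive one, and 2 of 7 day 7 rats and 3 of 7 day 14 rats lay below every naive one. Its difference was -0.20 ± 0.18 (SE) at day 7 and -0.19 ± 0.18 at day 14 (limma adjusted p = 0.803 and 0.581). Irf1 was at 7.13, 7.33, 7.61, 8.07 and 7.50 in naive rats. It ran from 7.18 over 7.41 to 7.84 in day 7 rats and from 7.18 over 7.37 to 7.69 in day 14 rats. All 14 operated rats lay within the range of the naive ones, and the differences were -0.09 ± 0.14 (SE) and -0.10 ± 0.14 (limma adjusted p = 0.888 and 0.719).

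Gbp2, a guanylate-binding GTPase induced mainly by interferon gamma, was at 7.65, 7.65, 7.15, 7.87 and 7.65 in naive rats. It ran from 7.41 over 7.59 to 8.13 in day 7 rats and from 7.17 over 7.70 to 8.04 in day 14 rats. In each operated group 2 of 7 rats lay above every naive rat. The difference was 0.12 ± 0.15 (SE) at day 7 and 0.09 ± 0.15 at day 14 (limma adjusted p = 0.86 and 0.761).

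**Figure D3:**
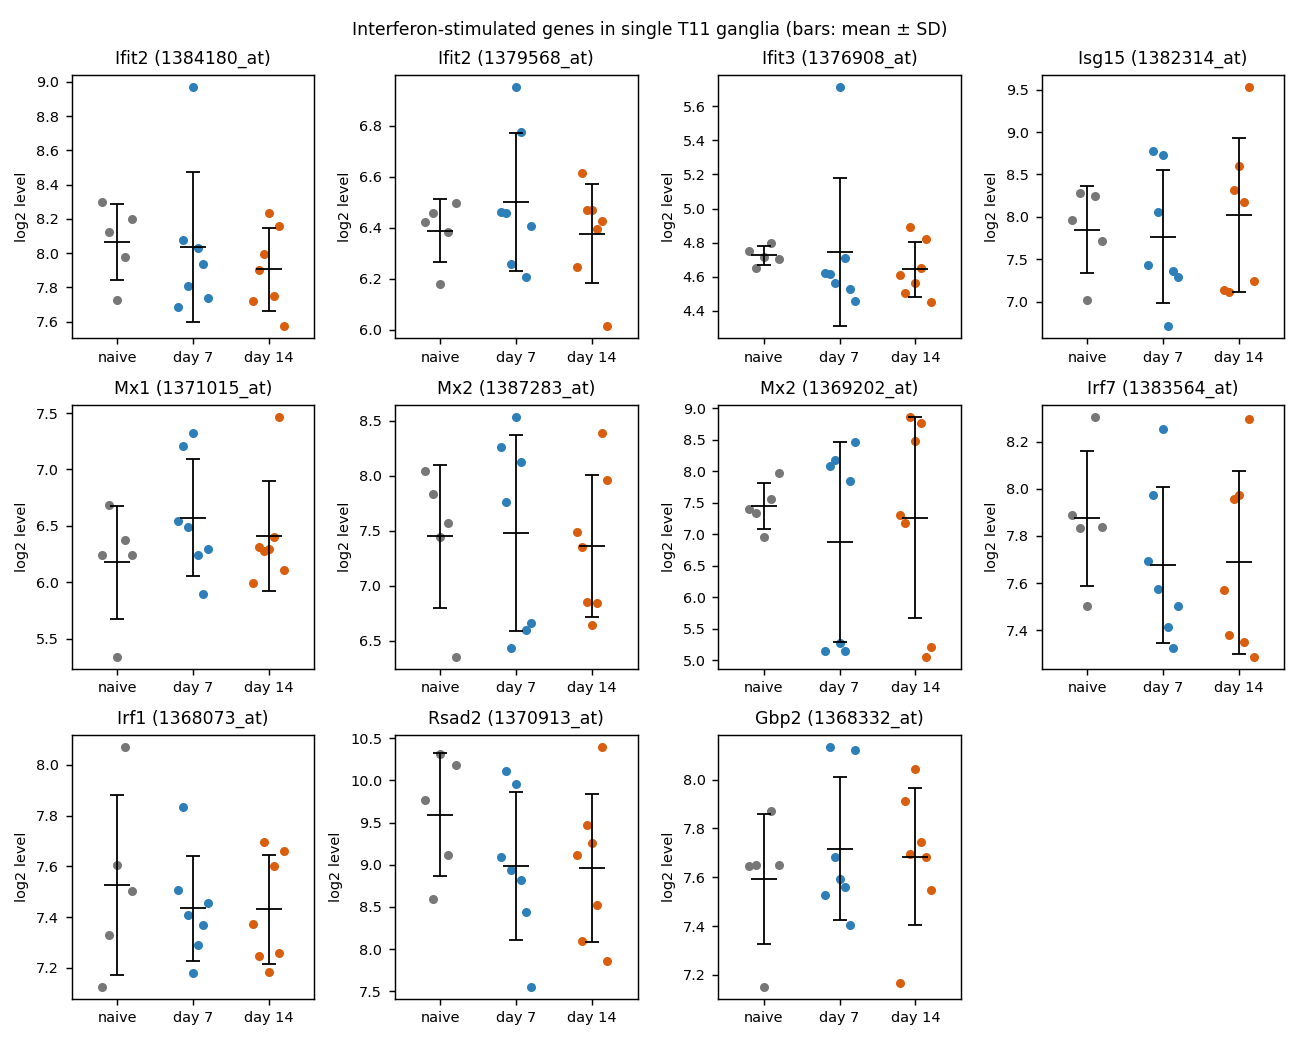
Log2 level of each of the 11 probe sets in each rat (points), with the group mean and SD as bars, for 5 naive, 7 day 7 and 7 day 14 rats. Each panel has its own vertical scale. The groups overlap in every panel, and Mx2 (1369202_at) falls into a cluster of 5 rats at 5.06 to 5.27 and 14 rats above it.

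The spread between rats of 1 group was large for these genes. The SD within groups, pooled over the 3 groups, had a median of 0.34 log2 units over the 11 probe sets, beside 0.14 over all 31042. It lay above the 90th percentile of all probe sets (0.24) for 10 of 11, the exception being Ifit2 (1379568_at) at 0.21. Leaving out 1 array at a time gave 8 to 10 of 11, and the 8 came without day 7 replicate 4. Without that rat the SD was 0.12 in place of 0.29 for Ifit3 and 0.21 in place of 0.33 for Ifit2 (1384180_at), both under the percentile. Mx2 (1369202_at) had the largest SD of the 11, 1.39, followed by Rsad2 with 0.84, Isg15 with 0.78 and Mx2 (1387283_at) with 0.75. From the lowest to the highest array the level differed 13.9-fold for Mx2 (1369202_at), 7.18-fold for Rsad2, 7.11-fold for Isg15 and 4.37-fold for Mx1. The share of a probe set's variance that lay between the 3 groups had a median of 3.55% over the members and 14.2% over all probe sets.

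**Figure D4:**
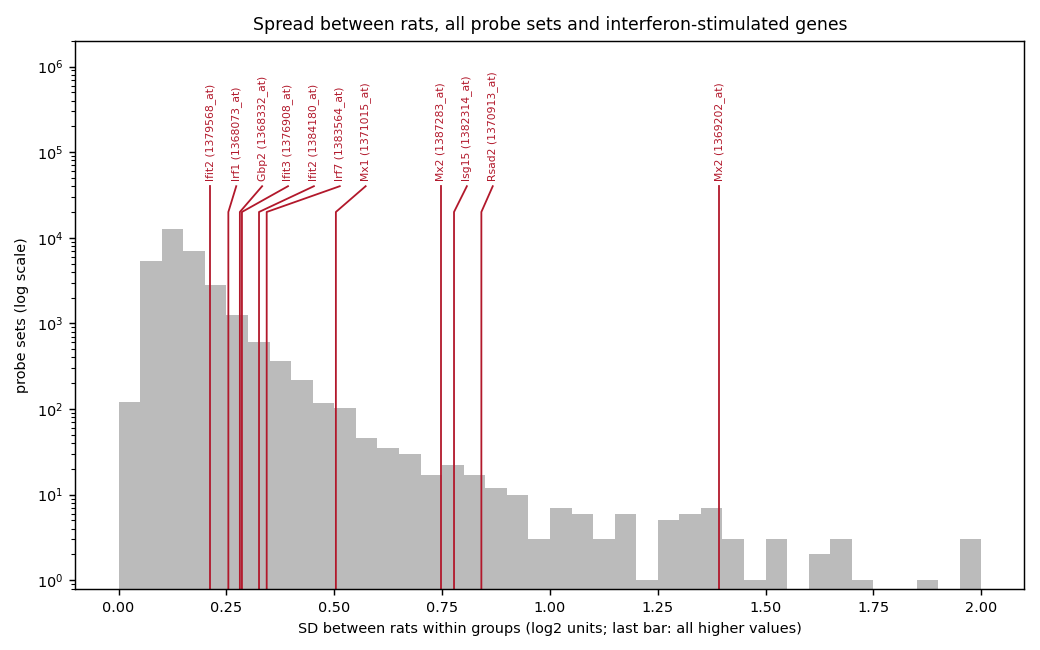
Number of probe sets (log scale) by SD between rats within groups, in log2 units, over all 31042 probe sets, with the 11 member probe sets as vertical lines. 10 of the 11 lines lie above 0.24, the 90th percentile of all probe sets.

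Several of the genes varied together between rats. Correlations were computed on levels centred within each group for 55 pairs of probe sets, 45 of them over the 19 rats and the 10 with Mx2 (1369202_at) over the 14 rats above its gap, with p-values from 100000 permutations within groups. After adjustment over the 55 pairs, 8 pairs passed by Pearson's r, all of them positive, and 5 of these also passed by Spearman's rho. Both counts include the pair of Ifit2 probe sets, which measure the same gene. No share for pairs of other probe sets was computed. Over the 45 pairs that did not involve Mx2 (1369202_at), 36 were positive and the median r was 0.43. All values of a rat come from 1 amplified RNA and 1 array.

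Isg15, Mx1 and Irf7 formed the tightest group. Between Isg15 and Mx1, r was 0.85 (permutation p = 0.0001, adjusted 0.00275) and rho was 0.79 (permutation p = 0.0002, adjusted 0.00688). Between Isg15 and Irf7, r was 0.84 (permutation p = 9e-05, adjusted 0.00275) and rho was 0.80 (permutation p = 0.00025, adjusted 0.00688). Between Mx1 and Irf7, r was 0.78 (permutation p = 0.00023, adjusted 0.00422) and rho was 0.75 (permutation p = 0.00054, adjusted 0.0099). Without the 2 rats farthest from the median of the first gene, r was 0.79, 0.80 and 0.62 for these pairs. Within the 7 day 7 rats the same r values were 0.87, 0.86 and 0.97, and within the 7 day 14 rats 0.82, 0.85 and 0.68, so the relation was present at each time.

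The 2 probe sets of Ifit2 correlated with each other (r = 0.76, permutation p = 0.00081, adjusted 0.0111, and rho = 0.74, permutation p = 0.0008, adjusted 0.011), in contrast to those of Mx2. Ifit2 (1384180_at) also correlated with Irf7 (r = 0.68, permutation p = 0.00201, adjusted 0.0221, and rho = 0.65, permutation p = 0.00455, adjusted 0.0417). The 3 pairs that passed by Pearson's r alone joined Ifit3 with Irf7 (r = 0.63), Ifit2 (1384180_at) with Mx1 (r = 0.62) and Ifit2 (1384180_at) with Isg15 (r = 0.61). Rsad2 with Irf7 had an r of 0.62 and did not pass (permutation p = 0.00939, adjusted 0.055). Irf1 passed with none of the others, and over 19 rats its r ran from -0.46 with Ifit2 (1384180_at) to 0.18 with Gbp2.

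Rats of each group differed in the mean of their deviations. The deviation of each gene from its group mean, divided by its SD within groups and averaged over the 9 genes, was highest in day 7 replicate 4 at 1.31. It was 1.07 in day 14 replicate 6, 0.88 in day 7 replicate 2 and 0.54 in naive replicate 4, and lowest in day 7 replicate 6 at -0.80. Among naive rats it was lowest in replicate 3 at -0.59. The high rats differed in which genes deviated. Ifit2 (1384180_at) and Ifit3 deviated by 0.94 and 0.97 log2 units in day 7 replicate 4, and by 0.25 and 0.18 in day 14 replicate 6. Isg15, Rsad2 and Mx1 deviated by 0.97, 0.97 and 0.75 in day 7 replicate 4, and by 1.52, 1.44 and 1.06 in day 14 replicate 6. In naive replicate 4 the highest of the 11 were Irf1 and Irf7, at 0.54 and 0.43. There 8 of 11 probe sets lay above the group mean, and Rsad2 was at -0.48.

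**Figure D5:**
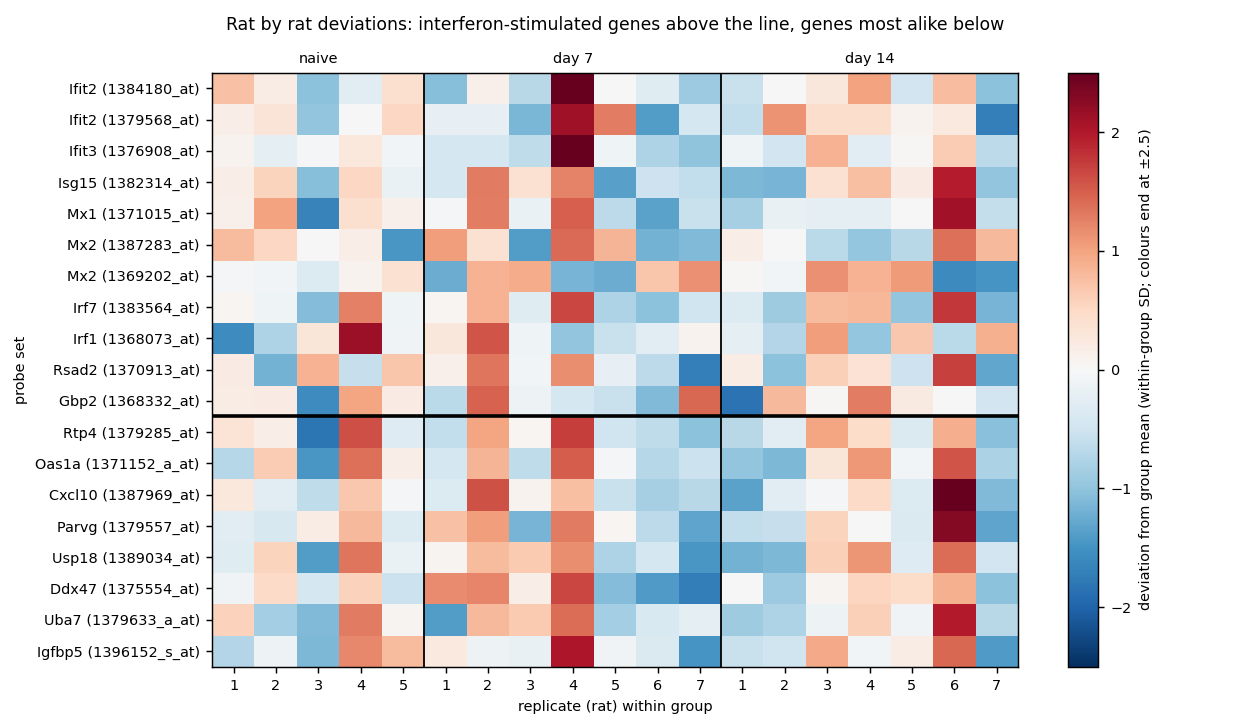
Deviation of each probe set from its group mean in each rat, in units of its SD within groups, for the 11 member probe sets (above the line) and the 8 genes most like their mean (below it). Columns are rats in the groups naive, day 7 and day 14. Day 7 replicate 4 and day 14 replicate 6 are high in most rows, except Mx2 (1369202_at), Irf1 and Gbp2.

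Outside the 9 genes, the genes whose deviations were most like their mean were named by the highest Pearson correlation over the 19 rats among 14208 genes. They were Rtp4, a receptor transporter (0.88), Oas1a, an oligoadenylate synthetase that senses double-stranded RNA (0.88), Cxcl10, a chemokine (0.86), Parvg, an actin-linked adhesion protein (0.83), and Usp18, which removes Isg15 from proteins (0.82). Ddx47, an RNA helicase (0.79), Uba7, the activating enzyme for Isg15 (0.79), and Igfbp5, which binds insulin-like growth factors (0.78), completed the 8. Of these 8, 5 belong to wider lists of the interferon pathway, which held 95 of the 14208 genes. Oas1a and Cxcl10 were the 2 of 6 with a promoter entry that held an ISRE match. These correlations are descriptions with no p-value. Each gene entered through its probe set of highest correlation. Uba7 stood at 0.79 by 1379633_a_at, 0.52 by 1386277_at and 0.13 by 1379634_at. The levels of Igfbp5 (4.16 to 4.78) and Parvg (5.30 to 5.66) were low, where the median of all values was 6.72.

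Rtp4 was picked by its correlation over these same rats, so its levels are given as a description. Its levels in naive rats were 7.54, 7.48, 6.81, 7.96 and 7.31, highest in replicate 4 and lowest in replicate 3. At day 7 it was highest in replicate 4 at 7.85 and next in replicate 2 at 7.60. At day 14 it was highest in replicate 3 at 7.58 and next in replicate 6 at 7.56. The mean deviation of the 9 genes was 0.34 in day 14 replicate 3 and 1.07 in day 14 replicate 6.

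Marker levels were set beside the shared deviation of each rat. The list mean of macrophage markers (21 of 21 genes measured) ran from 6.98 to 8.10 in day 7 rats and from 7.47 to 8.15 in day 14 rats, against 7.44 to 7.84 in naive rats. Its correlation with the mean deviation of the 9 genes was 0.61 (rho 0.44), and 0.44 without the 2 farthest rats. For plasmacytoid dendritic cell markers (5 of 7) it was 0.64 (rho 0.54), and 0.40 without the 2 farthest, though this list shares Tlr7 and Irf8 with the interferon lists. For lymphocyte markers (15 of 17) it was 0.45, and 0.51 without the 2 farthest. For satellite glia markers it was -0.31, and -0.45 without the 2 farthest, and for the 3′ to 5′ difference of the control probe sets, a sign of RNA quality, -0.17 and -0.48. It was 0.20 for nerve injury markers and -0.10 for skeletal muscle markers, each over 19 rats. The part of these cells and of RNA quality in the spread was not tested, and in whole ganglia fewer cells of a type and less RNA per cell cannot be told apart.

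The wider interferon pathway was read from lists of ligands, receptors, signal transducers, nucleic acid sensors, inhibitors and other interferon-stimulated genes. No probe set of any of these lists passed the threshold in any of the 3 comparisons, with limma. Of the ligands, 3 of 10 listed genes were measured, of the receptors 6 of 6, of the transducers 10 of 12, of the sensors and adaptors 9 of 13, of the inhibitors 5 of 5 and of the other interferon-stimulated genes 62 of 81. At an unadjusted p under 0.05, the 82 probe sets of the last list had 4 higher and 2 lower at day 7 against naive, beside 3.69% of all probe sets higher and 5% lower. At day 14 against naive it had 10 higher and 7 lower, beside 10.9% and 8.79% of all, and at day 14 against day 7 it had 5 higher and 2 lower, beside 7.11% and 4.22%.

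The other lists were small, and their counts at an unadjusted p under 0.05 are given as probe sets. Over all probe sets the shares were 3.69% higher and 5% lower at day 7, 10.9% and 8.79% at day 14, and 7.11% and 4.22% between day 14 and day 7. At day 7 against naive, 1 of 15 for transducers was higher and 4 were lower, and ligands, receptors, sensors and inhibitors had 0. In day 14 rats against naive, 2 of 3 for ligands were higher, 2 of 13 for receptors were higher and 1 lower, 3 of 15 for transducers were higher and 6 lower, 2 of 13 for sensors were higher, and 1 of 7 for inhibitors was lower. Between day 14 and day 7, 1 for ligands, 1 for receptors and 2 for sensors were higher, and 1 for transducers was lower. All 3 ligands were measured at low levels, given below.

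Among the ligands, Ifnb1, the type I interferon beta, was at 4.90 to 5.10 in day 14 rats, and at 4.92, 4.67, 4.79, 4.80 and 4.81 in naive rats. Of the day 14 rats 6 of 7 lay above every naive rat. The difference of 0.23 ± 0.06 (SE) did not pass (limma adjusted p = 0.0848). Ifng, interferon gamma, had log2 differences from naive of 0.06 at day 7 and 0.16 at day 14, and neither passed. All measured ligands were at low levels, where a small difference may be background signal. Mean levels over all arrays were 4.9 for Ifnb1, 4.2 for Ifng and 4.4 for Ifnk, where the median of all values was 6.72.

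Of the receptors, Ifngr2 (1374601_at), a chain of the interferon gamma receptor, had the smallest p at day 14 against naive. It was at 10.23 to 10.67 in day 14 rats, and at 10.23, 10.20, 10.10, 10.16 and 10.08 in naive rats. All 7 day 14 rats lay above the highest naive rat, where 1.82% of all probe sets separated, and the difference of 0.31 ± 0.08 (SE) did not pass (limma adjusted p = 0.0765).

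Tyk2, the kinase bound to Ifnar1, had the smallest p among the transducers at both times. It was at 8.35 to 8.67 in day 7 rats, at 8.32 to 8.55 in day 14 rats, and at 8.54, 8.65, 8.82, 8.99 and 8.77 in naive rats. In each operated group 6 of 7 rats lay below every naive rat. The differences of -0.28 ± 0.07 (SE) at day 7 and -0.31 ± 0.07 at day 14 did not pass (limma adjusted p = 0.336 and 0.0726). For the inhibitor Pias1 (1385540_at) the difference at day 14 was -0.27 ± 0.08 (limma adjusted p = 0.118), with 6 of 7 rats below every naive rat. The other Pias1 probe set (1382191_at) was at 0.02, so the probe sets disagreed.

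Of the other interferon-stimulated genes, Ifi44l had the smallest p among those higher at day 14. It ran from 6.78 to 8.35 in day 14 rats, and was at 6.79, 6.82, 7.00, 6.90 and 6.97 in naive rats. Of the day 14 rats, 6 of 7 lay above every naive rat and 1 lay below every naive rat. The difference of 0.78 ± 0.22 (SE) did not pass (limma adjusted p = 0.0931). Parp12, an ADP-ribosyltransferase, stood lower at day 14, at -0.26 ± 0.07 (limma adjusted p = 0.0769). At day 7 against naive, the chemokine Cxcl9 stood at 0.23 ± 0.07 by 1382454_at (limma adjusted p = 0.413) and at -0.02 by 1373544_at. The immunity-related GTPase Irgm2 stood at -0.37 ± 0.13 (limma adjusted p = 0.455).

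Other probe sets of smallest p in their lists, none past the threshold in limma, had these log2 differences, with the value of the gene's other probe sets beside them. At day 7 against naive, the kinase Jak1 stood at 0.33 ± 0.16 (SE) by 1384060_at and 0.11 by 1383478_at, and the DNA-sensing adaptor Sting1 at 0.24 ± 0.15. The receptor chain Ifnar2 stood at -0.19 ± 0.11 by 1380445_at and -0.12 by 1390154_at. The 6 probe sets of Ifnar1 ran from -0.12 to 0.12 and the 3 of the RNA sensor Dhx58 from -0.12 to -0.01.

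In day 14 rats against naive, the adaptor Myd88 stood at 0.24 ± 0.10 and the signalling inhibitor Socs3 at 0.13 ± 0.08. The probe sets of Irf2, a repressor, disagreed, with 0.18 ± 0.06 by 1382503_at, -0.20 by 1398561_at and 0.05 by 1386518_at, and those of Ifnar1 ran from -0.17 to 0.17. The mean levels of the Irf2 probe sets were low, at 4.83, 5.42 and 4.53 in this order. Between day 14 and day 7, Ifngr2 stood at 0.21 ± 0.07 by 1374601_at and 0.14 by 1375716_at, Ifnb1 at 0.19 ± 0.05 and the nucleic acid sensor Zbp1 at 0.19 ± 0.09. Socs1 stood at 0.10 and 0.07 by its 2 probe sets. In the same comparison Tapbp, which helps load peptides on MHC class I, stood at 0.31 ± 0.12, Nmi at -0.33 and -0.11 and Irf9 at -0.14 and -0.17 by 2 probe sets each.

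The spread between rats was also read along the pathway. Of the 82 probe sets of other interferon-stimulated genes, 17 had an SD within groups above the 90th percentile of all probe sets. The same held for 0 of 3 for ligands, 2 of 13 for receptors, 3 of 15 for transducers, 2 of 13 for sensors and adaptors and 2 of 7 for inhibitors. Of the 82, 23 (28%) correlated above 0.5 with the mean deviation of the 9 genes, beside 1.95% of all probe sets. Their median r was 0.33, beside 0.01 over all. Ligands had a median r of 0.05 and 0 of 3 above 0.5, and receptors a median of 0.07 and 1 of 13 above 0.5. For transducers it was 0.18 with 2 of 15, for sensors and adaptors 0.11 with 2 of 13 and for inhibitors -0.09 with 1 of 7. These shares describe the lists, and their differences were not tested.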

How the data were processed

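Per the labels and the submitters' processing notes, the authors deposited log2 levels per probe set made with RMA (background correction, quantile normalization and summary over probes) and named limma, with versions not given in the sources used here. Quantile normalization would hide a general shift of transcripts. Per the labels' protocols, ganglion RNA was amplified linearly in 2 rounds, and the naive group lost 1 array to the submitters' quality control, which is not analysed here. The labels pair no rats by replicate number, and 57 control probe sets were left out. Gene names came from the platform annotation.

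All 3 groups were fitted in 1 model with limma 3.58.1 in R 4.3.3 (lmFit and eBayes), with Benjamini-Hochberg adjustment over 31042 probe sets and a threshold of 0.05. Permutation tests were run with numpy 2.4.6 in Python 3.11.15. Tables were handled with pandas 2.3.3, correlations with scipy 1.17.1 and figures with matplotlib 3.10.9. A gene with 2 probe sets entered the mean deviation through the one of higher mean. The fit was tested on simulated data with 200 changed probe sets, drawn at random from all 31042. A change of 0.5 log2 units, equal on every array, was recovered in 81.5% for day 7 against naive, 83% for day 14 against naive and 91.5% for day 14 against day 7. The median SD within groups was 0.14 over all probe sets and 0.34 over the members. These shares therefore do not give the recovery for the members. Changes that differ between rats were not simulated.

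The genes and the wider lists were chosen with earlier results of these data known. Every member is named. Of each wider list the probe sets of smallest p in each direction could be named, and so were the 8 genes of highest correlation with the members' mean. Other settings are given in the closing section.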

Additional observations from a re-analysis of the deposited data

Results flagged for a closer look

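In 3 of the 33 groups of values (11 probe sets in 3 groups), 1 array stood far from the others of its group by Dixon's criterion. For independent groups chance gives about 1 in 20, or 1.65 of 33. The 33 groups share rats and are not independent, and no share over all probe sets is given. Ifit2 (1384180_at) was at 8.97 in day 7 replicate 4, where the next highest day 7 rat was at 8.08. Ifit3 was at 5.72 in the same rat, where the next was at 4.71. Mx1 was at 7.47 in day 14 replicate 6, where the next was at 6.40. In day 7 replicate 4 macrophage markers averaged 8.01 and endothelial markers 8.82, above the highest naive rats at 7.84 and 8.49. Of the other day 7 rats, replicate 2 reached 8.10 for macrophage markers and replicate 5 reached 8.82 for endothelial markers. In day 7 replicate 4 lymphocyte markers (5.51) and plasmacytoid dendritic cell markers (7.40) also exceeded the highest naive rats, at 5.44 and 7.29. Replicate 2 exceeded them as well. Nerve injury markers in day 7 replicate 4 averaged 7.75, against 7.41 to 7.73 in naive rats. In day 14 replicate 6 macrophage (7.80) and endothelial markers (8.19) lay within the naive ranges, and lymphocyte markers were at 5.56. The part of these markers in the values above was not tested.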

How the results depend on the processing

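Under 35 other settings the number of member probe sets past the threshold was 0 in each comparison, including a replicate block (0), the letters of the animal codes as a block, covariates for macrophage or muscle markers and 3′ to 5′ signal, and leaving out each array in turn (0 to 0). Leaving out together the 3 arrays high in muscle markers, chosen after seeing the data, also gave 0. The smallest adjusted p of a member over these settings was 0.179. No paired analysis is implied. Rats of the same number had a mean r of 0.03 for day 7 with naive, -0.04 for day 14 with naive and -0.07 for day 14 with day 7. Other pairs had means of -0.01, 0.01 and 0.01 in this order. Single pairs of the same number ran from -0.26 to 0.33. These values are not the correlations between whole arrays given earlier. Over the same settings the number called among all probe sets ran from 0 to 401 at day 14 against naive and from 0 to 2 at day 7.

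Of 1113 differences recomputed, 87 had the other sign. They came from 21 differences of at most 1.02 SE. With the animal code letters as a block, where AI occurs at day 14 only, 5 values moved by more than 1 SD. At day 14 against naive, Mx2 (1387283_at) came to -0.97, Mx2 (1369202_at) to 1.84, Irf7 to 0.16 and Gbp2 to 0.39, and at day 14 against day 7 Mx2 (1369202_at) came to 2.09. Within AJ rats Mx2 (1369202_at) differed by 1.49 at day 14 against naive (2 rats each). Leaving out each array in turn, chosen after seeing the data, gave 8 to 10 of 11 members above the 90th percentile of spread. The cause was not tested. The number of rats limits what could be detected for the members of large spread.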
